A study of Caenorhabditis elegans with 6 samples.

Results

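The acr, lgc and glr genes of C. elegans encode subunits of ligand-gated ion channels, and their mRNA was compared here between hermaphrodites grown 10 per plate and hermaphrodites grown alone. The members were all rows of the deposited count table whose WormBase symbol is acr-, lgc- or glr- followed by a number, which gave 85 genes of 46756 in the table: 21 acr, 56 lgc and 8 glr genes. The study asked how the density of a hermaphrodite population relates to the release of exophers, large membrane-bound vesicles, from body wall muscle, and sequenced RNA to look for receptors that differ with density. Whole worms of strain ACH93, kept at 20°C on OP50 bacteria, were collected on adulthood day 2 after growth with 10 worms per plate (n = 3 libraries) or as solitary worms (n = 3 libraries). Worms of both conditions carried the integrated transgenes wacIs1, a proteasome subunit fused to wrmScarlet (RPN-5::wrmScarlet), and wacIs14, a mitochondrial outer membrane GFP, both driven by the muscle promoter myo-3p. Both transgenes also hold unc-119(+), in an N2 background, and the number of worms pooled per library is not given in the sources used here. PolyA RNA was sequenced, so that each value is a whole-animal value in which fewer cells of a type and less RNA per cell cannot be told apart.

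Ligand-gated ion channels open when a neurotransmitter binds and let cations or anions through the membrane. The acr genes encode nicotinic acetylcholine receptor subunits, which serve transmission at the neuromuscular junction and between neurons. Many lgc genes encode other members of the same Cys-loop superfamily, among them channels gated by amines, acetylcholine, choline or GABA, and a large share of lgc genes has no ligand assigned here. The glr genes encode ionotropic glutamate receptor subunits of the non-NMDA type, a separate protein family, known best from the interneurons that command forward and backward movement. Most such subunits are made in few neurons or muscles, and their transcripts are rare in RNA of whole worms.

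Libraries held 57077055 to 62794403 counts for worms grown 10 per plate and 55176436 to 62269301 for solitary worms, and between 20105 and 20701 genes had a count in a library. All 85 members together took 4585 to 5440 counts per library, or 0.00788% to 0.00923% of all counts. Of the members, 76 reached 10 counts summed over the 6 libraries and were tested among 18428 genes, namely all 21 acr genes, all 8 glr genes and 47 of the 56 lgc genes. The 9 members below that minimum were lgc-6, lgc-7, lgc-8, lgc-14, lgc-15, lgc-16, lgc-17, lgc-23 and lgc-24. Only lgc-16 had 0 counts in every library, which allows up to 3 counts per library, or 0.0484 to 0.0551 CPM (counts scaled to the library's total and TMM factor) depending on the library. A count was present in all 6 libraries for 71 members. Reads carried no molecular identifiers, so limits of this kind cover counting error only.

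The members lay on all 6 chromosomes of WBcel235, with 5 on I, 12 on II, 10 on III, 14 on IV, 17 on V and 27 on X. The X chromosome therefore held 31.8% of the members (18 lgc, 6 acr and 3 glr genes), against 13.5% of the 19725 protein-coding genes in the table. In 8 clusters, 20 members lay within 20000 bases of another member. The largest, lgc-13 to lgc-18 on chromosome X from 12109166 to 12128000, held 6 genes that together gave 74 counts over the 6 libraries, and only 2 of the 6 could be tested. The neighbours acr-15 and acr-16 on chromosome V (8552695 to 8564345) gave 1338 counts. The acr-2 and acr-3 genes lie 229 bases apart on chromosome X (6702549 to 6712925) and encode partner subunits of a receptor of cholinergic motor neurons. They gave 181 counts. The members' exons (the union over all transcripts) spanned 1101 to 3484 bases with a median of 1680, in 5 to 21 exons with a median of 10. Exonic bases were shared with another gene in 43 members, 34 of them on the opposite strand only, and the sources used here do not say whether counting used strand. The shared part exceeded 20% of the exonic bases in glr-2 alone (21.01%) and was 11.99% in lgc-54.

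Levels were compared between genes as CPM per kilobase of exon, on which scale the tested members had a median of 0.299, against 4.05 over the 16440 tested protein-coding genes. The range among tested members was 296-fold. lgc-22, an lgc gene on chromosome IV (4301306 to 4304448), was the most abundant, at 7.16 ± 0.759 in worms grown 10 per plate and 6.57 ± 1.23 in solitary worms (SD, n = 3 each, here and below). The next was lgc-34 on chromosome II (526574 to 530374), at 4.28 ± 0.317 with 10 worms per plate and 4.97 ± 0.406 in solitary worms. lgc-54 on chromosome V (6840217 to 6846607) followed at 2.20 ± 0.414 with 10 worms per plate and 2.73 ± 0.128 in solitary worms. lgc-32 had a mean of 1.75 over the 6 libraries. glr-6, on chromosome X (6836210 to 6840720), was the most abundant glutamate receptor gene, at 1.41 ± 0.113 with 10 worms per plate and 1.59 ± 0.167 in solitary worms. These 5 genes made up 37.2% of the summed level, and the top 10 made up 50.9%. In each library lgc-22 was above lgc-34 and lgc-34 above lgc-54. Across libraries the lowest value of lgc-22 (5.21, in solitary library 3) lay below the highest of lgc-34 (5.44), whereas lgc-34 and lgc-54 did not overlap. The next places, lgc-54, lgc-32, glr-6 and lgc-45 (a mean of 1.47), each overlapped with a neighbour.

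The median level was 0.268 for acr genes (from 0.0482 to 1.22), 0.325 for tested lgc genes (from 0.0232 to 6.87) and 0.339 for glr genes, of which the lowest was at 0.0600. lgc genes held 70.9% of the summed level, acr genes 20.1% and glr genes 8.97%. Among the nicotinic subunits acr-15 stood at 1.08 ± 0.104 with 10 worms per plate and 1.37 ± 0.0545 in solitary worms. Its neighbour acr-16, the subunit of the nicotine-sensitive receptor of body wall muscle, had 0.988 ± 0.0527 with 10 worms per plate and 1.15 ± 0.100 in solitary worms. The mean levels over all 6 libraries were 1.22 in both acr-15 and acr-18, 1.07 in acr-16 and 0.923 in acr-12, and the ranges of these genes overlapped.

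**Figure D1:**
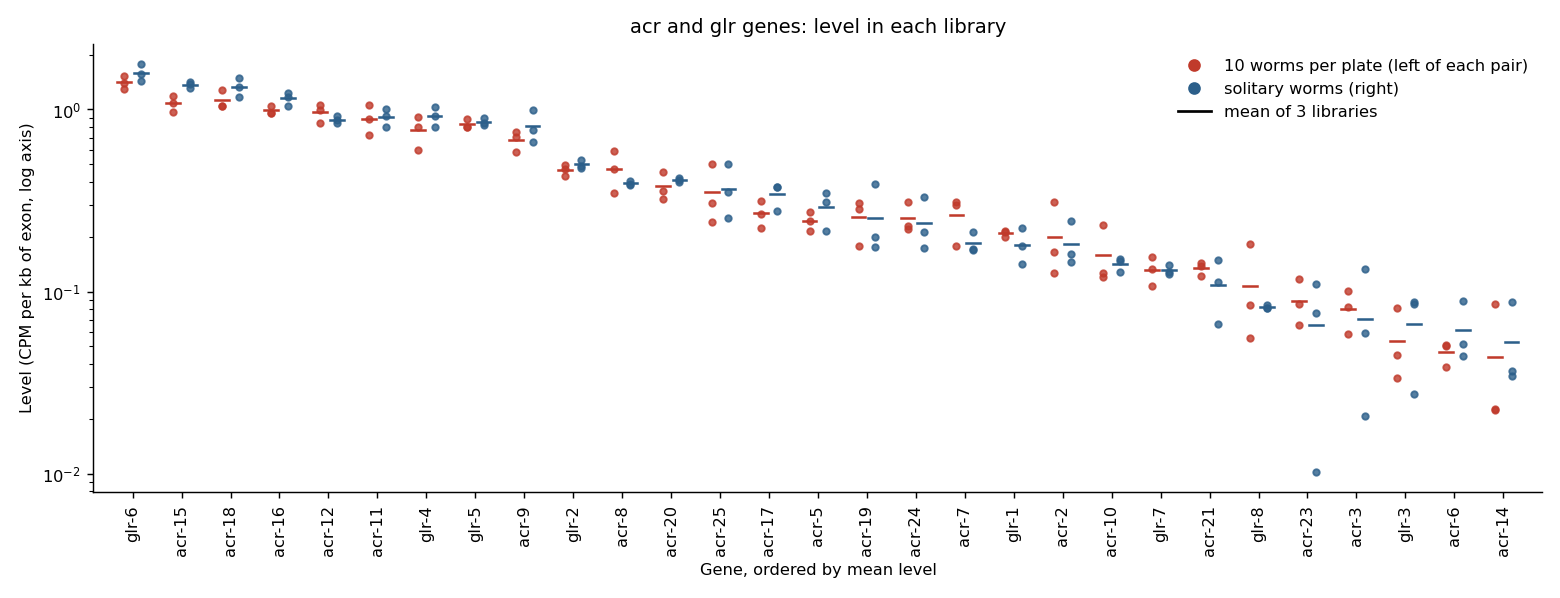
Level of each acr and glr gene in each library, as CPM per kilobase of exon on a log axis, with worms grown 10 per plate left of solitary worms and bars at the mean of 3 libraries. The levels run from glr-6 down to below 0.1, and the points of the conditions overlap in every gene except acr-15.

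**Figure D2:**
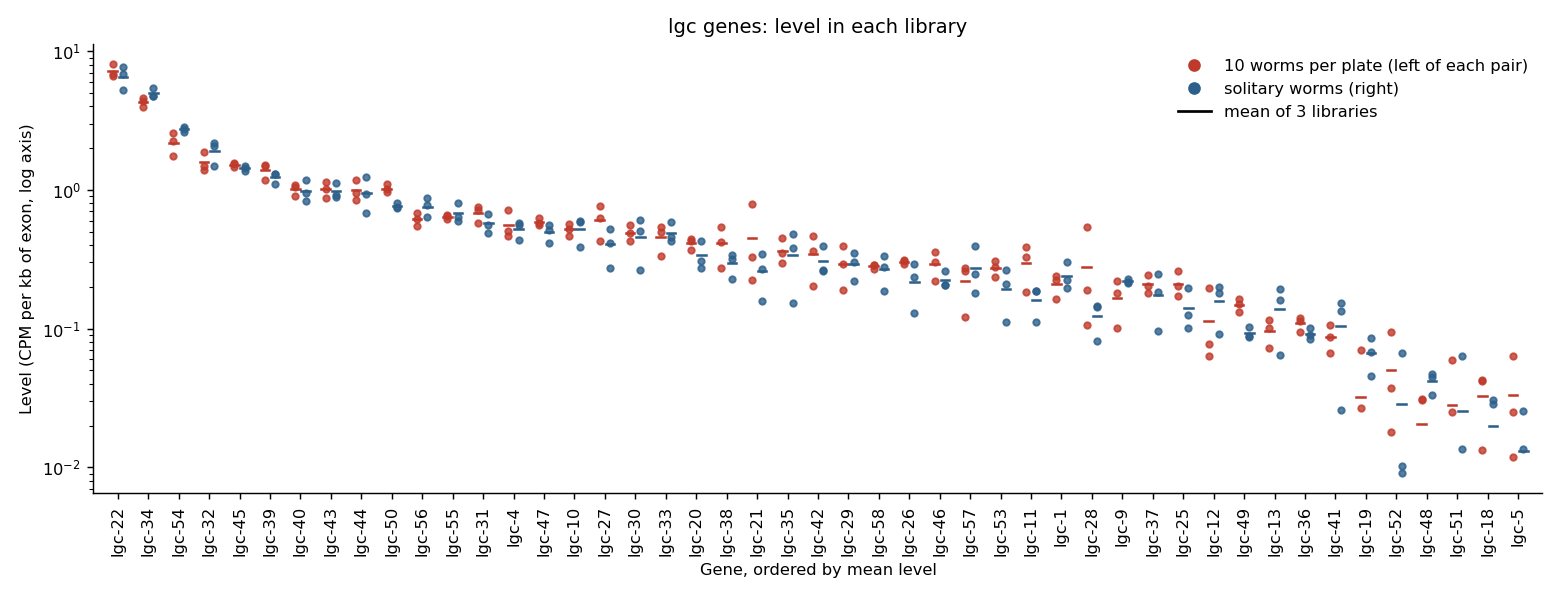
Level of each tested lgc gene in each library, as CPM per kilobase of exon on a log axis, with worms grown 10 per plate left of solitary worms and bars at the mean of 3 libraries. Counts of 0 cannot be drawn on this axis, and lgc-22, lgc-34 and lgc-54 have the highest means.

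No member differed between the growth conditions past the test's threshold. With edgeR's quasi-likelihood test and Benjamini-Hochberg adjustment over all 18428 genes, 0 of the 76 tested members had an adjusted p under 0.05, a threshold that 0.239% of all genes passed (44 genes). With an absolute log2 fold change above 1 as well, 0 members and 0.0109% of all genes (2 genes) passed. At an unadjusted p under 0.05, 2 members stood out, lgc-50 and lgc-11, both with higher values in worms grown 10 per plate. That is 2.63% of the tested members, below the 11.9% of all genes (5.19% higher and 6.71% lower with 10 worms per plate). The members had lower counts than most genes. With a mean of at least 20 counts required, the shares were 3.85% of members and 14.6% of all genes. DESeq2 gave 1 member at an unadjusted p under 0.05, lgc-50, against 10.3% of all genes. DESeq2 gave an adjusted p for only 5 members, its filter on low counts having left out 71, and 0 of the 5 were under 0.05. Over all genes 435 were under 0.05, or 2.36% of the 18428 tested, a share taken over genes with and without an adjusted p. The smallest adjusted p in edgeR was 0.333, for lgc-50.

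The spread of fitted values was centred close to 0. The median log2 fold change (10 worms per plate over solitary) was 0.078 over the tested members and 0.0026 over all genes, and 44 members were fitted above 0 and 32 below, against 50.6% of all genes above 0. By family the medians were -0.034 for acr, 0.11 for lgc and -0.072 for glr genes. The absolute log2 fold change had a median of 0.25 over the members and 0.13 over all genes, and the members' counts were lower (a median of 33.6 counts per library, against 203 over all genes). Once a trend with transcript length had been removed from each library, the members' median was 0.050, against 0.015 over all genes. Summed over all members, 79.7 to 89.9 CPM were found with 10 worms per plate and 78.6 to 89.3 CPM in solitary worms. The sum over the glr genes was 11.4 to 13.3 CPM with 10 worms per plate and 13.02 to 13.5 CPM in solitary worms, and the ranges of the acr genes (14.6 to 17.7 with 10 worms per plate, 16.04 to 17.9 in solitary worms) and of the lgc genes (53.8 to 60.6 with 10 worms per plate, 49.5 to 57.9 in solitary worms) likewise overlapped.

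**Figure D3:**
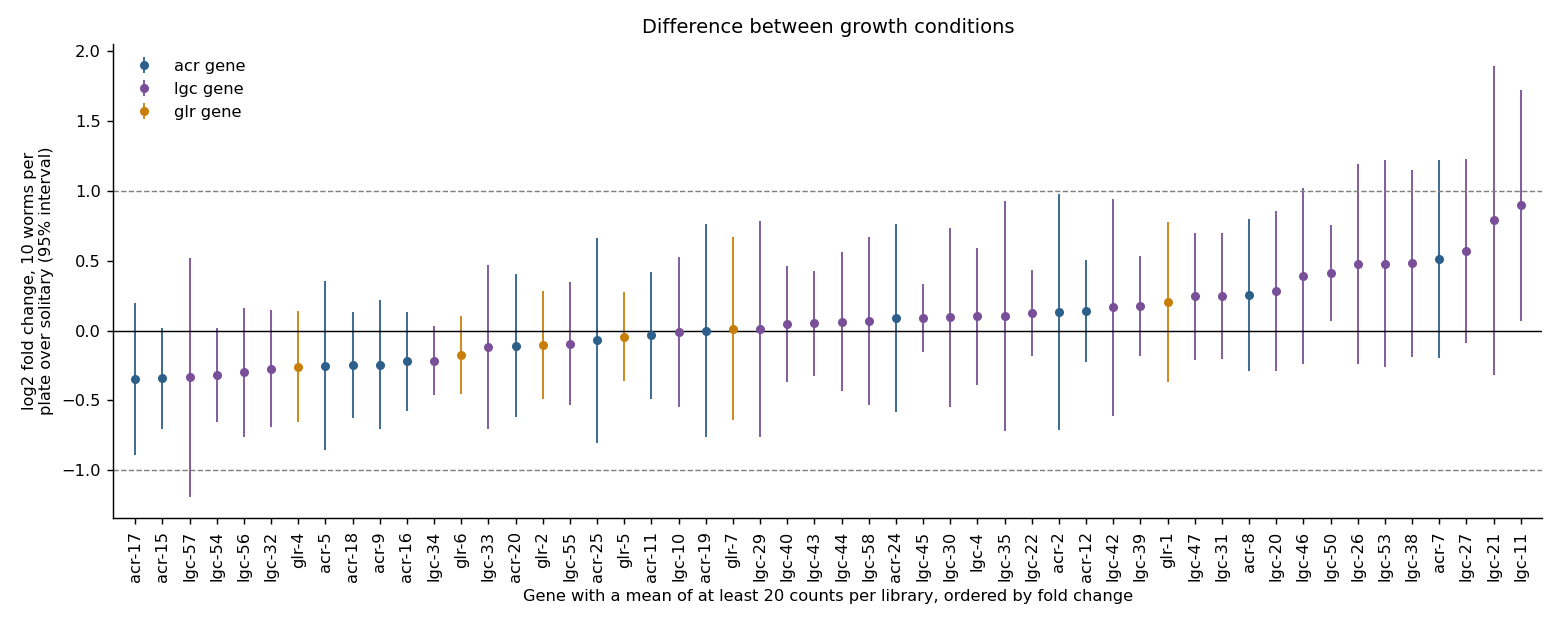
Fitted log2 fold change (10 worms per plate over solitary) of the 52 tested members with a mean of at least 20 counts, with the 95% interval from edgeR; dashed lines mark a log2 fold change of 1 in either direction. The median of these members was 0.057, and among them only the intervals of lgc-50 and lgc-11 lie clear of 0.

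lgc-50 encodes a serotonin-gated cation channel that takes part in aversive olfactory learning. Its gene lies on the minus strand of chromosome III (WBGene00020605, 7391090 to 7395454, 11 exons). lgc-50 had 2.24, 2.13 and 2.42 CPM with 10 worms per plate and 1.67, 1.79 and 1.65 CPM in solitary worms. All 3 libraries of worms grown 10 per plate were above all 3 of solitary worms. The means were 2.27 ± 0.146 CPM with 10 worms per plate and 1.70 ± 0.0766 CPM in solitary worms, and the log2 fold change was 0.41 (SE 0.16), or 1.33-fold with a 95% interval of 1.05 to 1.69. The unadjusted p of lgc-50 in edgeR was 0.0235 and the adjusted p 0.333. With 1 library left out in turn its log2 fold change was 0.36 to 0.45, and the unadjusted p of edgeR was under 0.05 in 4 of 6 such fits, at 0.0670 without library 3 of 10 worms per plate and 0.0591 without solitary library 1.

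lgc-11 is an lgc gene on chromosome X (7503780 to 7506633, 10 exons). It had 30, 34 and 16 counts with 10 worms per plate, against 15, 10 and 16 in solitary worms. The third library of 10 worms per plate fell within the range of solitary worms, so the conditions overlapped. The log2 fold change of lgc-11 was 0.90 (SE 0.38), or 1.86-fold with a 95% interval of 1.05 to 3.30, with an unadjusted p = 0.0361 and adjusted p = 0.376 in edgeR. Leaving out 1 library in turn gave log2 fold changes of 0.67 to 1.15 for lgc-11, with an unadjusted edgeR p under 0.05 in 3 of 6 fits.

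Values of the conditions did not overlap in 8 members, 10.5% of those tested, against 18.3% of all genes. They were higher with 10 worms per plate in lgc-26, lgc-47, lgc-49 and lgc-50, and lower in acr-15, lgc-34, lgc-48 and lgc-54. The shares over all genes were 8.51% higher and 9.83% lower. acr-15 had 1.63, 1.46 and 1.77 CPM with 10 worms per plate and 2.06, 2.13 and 1.97 CPM in solitary worms, a log2 fold change of -0.34 (SE 0.17, adjusted p 0.452 in edgeR). lgc-34 had 346, 366 and 379 counts with 10 worms per plate and 419, 410 and 390 in solitary worms, with a log2 fold change of -0.21 (SE 0.11, adjusted p 0.495 in edgeR). lgc-54 had 220, 240 and 161 counts with 10 worms per plate and 222, 273 and 251 in solitary worms. Its log2 fold change was -0.32 (SE 0.15, adjusted p 0.452 in edgeR), and without library 3 of 10 worms per plate it was -0.18. lgc-26 had 30 counts in each library of 10 worms per plate and 21, 13 and 28 in solitary worms. lgc-47 had 66, 65 and 70 counts with 10 worms per plate and 53, 48 and 62 in solitary worms, with a log2 fold change of 0.25 (SE 0.21). lgc-48 had at most 3 counts in any library.

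**Figure D4:**
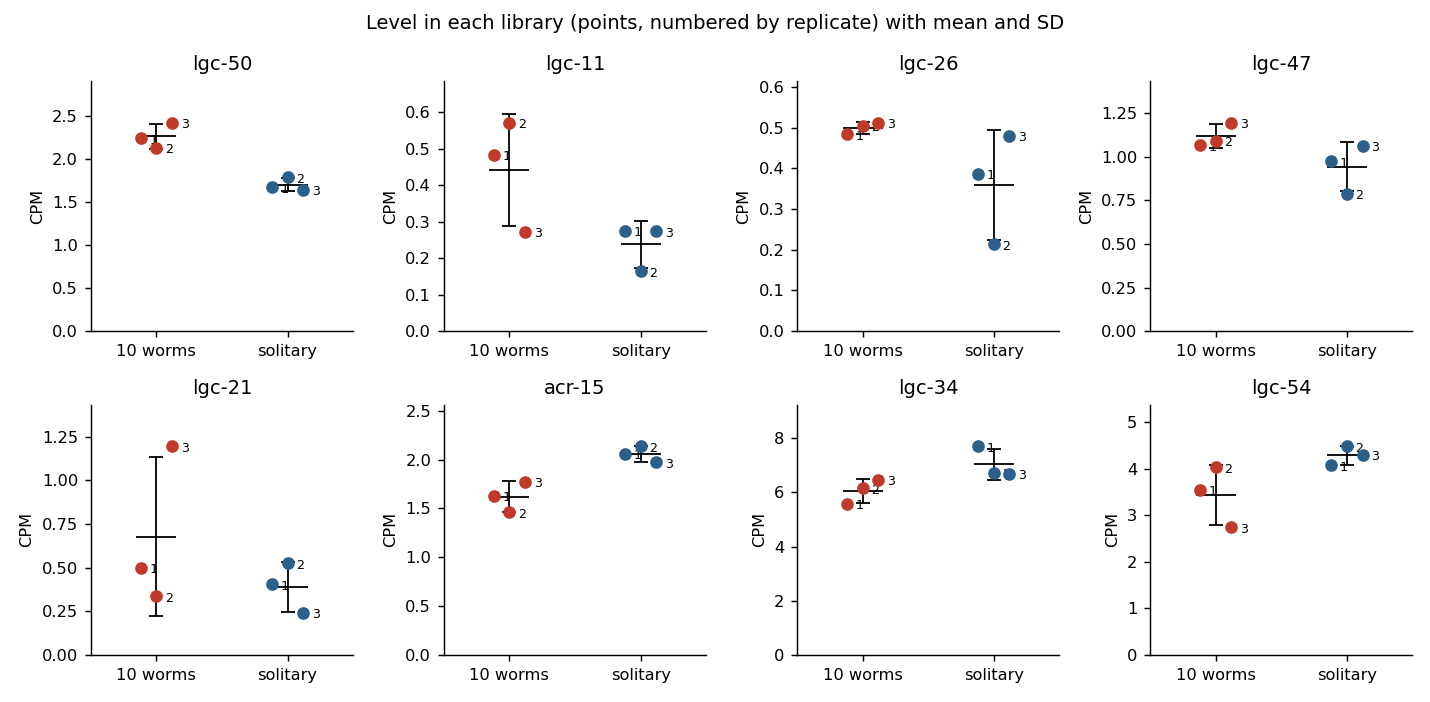
Value in each library of 8 members whose conditions do not overlap or whose fold change is among the most extreme, in CPM, with worms grown 10 per plate left of solitary worms. In lgc-50 all points of 10 worms per plate lie above those of solitary worms, and in acr-15 and lgc-34 all lie below, whereas in lgc-21 a single library of 10 worms per plate stands high.

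The nicotinic subunits showed no common direction. Of the 21 acr genes, 9 were fitted above 0 and 12 below, and 0 had an unadjusted p under 0.05 in edgeR. acr-12, a subunit of receptors on motor neurons, had 108, 130 and 120 counts with 10 worms per plate and 103, 110 and 101 in solitary worms, and its 95% interval ran from 0.854-fold to 1.42-fold. acr-16 had 1.74, 1.75 and 1.91 CPM with 10 worms per plate and 1.89, 2.25 and 2.14 CPM in solitary worms, an interval of 0.672-fold to 1.10-fold. The conditions overlapped in both genes. acr-2, the partner of acr-3, was at 16, 20 and 37 counts with 10 worms per plate and 27, 18 and 19 in solitary worms. acr-23, a receptor gated by betaine and the target of the drug monepantel, gave 13, 7 and 9 counts with 10 worms per plate and 1, 12 and 8 in solitary worms, so that its interval was wide, from 0.511-fold to 3.51-fold.

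Among the acr genes of the DEG-3 group of nicotinic subunits, 4 of 6 tested were fitted below 0, with a median log2 fold change of -0.18. The genes deg-3 and des-2, counted with the other subunits below, had log2 fold changes of 0.18 and -0.13. Of the acr genes of the DEG-3 group, acr-18 had 1.68, 2.07 and 1.69 CPM with 10 worms per plate and 1.89, 2.40 and 2.14 CPM in solitary worms. acr-17, of the same group, had 39, 44 and 31 counts with 10 worms per plate and 48, 54 and 38 in solitary worms, with a log2 fold change of -0.35 (SE 0.25). In the ACR-16 group 7 of 10 acr genes were fitted below 0, with a median of -0.052. acr-7 had 32, 32 and 18 counts with 10 worms per plate and 20, 18 and 17 in solitary worms, a log2 fold change of 0.51 (SE 0.32, adjusted p 0.585 in edgeR). In each of these genes the libraries of the conditions overlapped.

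Among the lgc genes grouped as channels gated by biogenic amines, 3 of 4 were fitted above 0, with a median log2 fold change of 0.23, and lgc-50 was the only one with an unadjusted p under 0.05 in edgeR. lgc-55, a tyramine-gated chloride channel of the escape response, had 67, 68 and 66 counts with 10 worms per plate and 57, 86 and 65 in solitary worms, with a 95% interval of 0.690-fold to 1.27-fold. lgc-53, a dopamine-gated channel, had 31, 33 and 25 counts with 10 worms per plate and 11, 29 and 22 in solitary worms. lgc-40, a chloride channel that responds to serotonin and choline, had 110, 91 and 107 counts with 10 worms per plate and 108, 85 and 93 in solitary worms, an interval of 0.773-fold to 1.38-fold. The conditions overlapped in lgc-55, lgc-53 and lgc-40.

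The 3 lgc genes grouped as acetylcholine-gated chloride channels, lgc-46, lgc-47 and lgc-49, were fitted above 0, with a median log2 fold change of 0.39. Of the 3, 2 did not overlap between conditions, against 18.3% of all genes (8.51% higher with 10 worms per plate). lgc-46 had 36, 25 and 40 counts with 10 worms per plate and 27, 24 and 23 in solitary worms (log2 fold change 0.39, SE 0.29). lgc-49 had 17, 15 and 13 counts with 10 worms per plate and 8, 9 and 10 in solitary worms, with a log2 fold change of 0.68 (SE 0.38, adjusted p 0.531 in edgeR). In none of the 3 was the adjusted p of edgeR under 0.5. lgc-48, which was not placed in this group here, did not overlap either but was lower with 10 worms per plate, at very low counts. Channels of this type outside the members, acc-1, acc-2, acc-3 and acc-4, were counted with the other subunits below. Their log2 fold changes went both ways (0.44, -0.54, 0.71 and -0.0025 in that order), and the conditions overlapped in each. Of 5 genes related to GABA-gated channels, 4 were fitted above 0 and lgc-34 below, with a median of 0.23. lgc-35, an excitatory GABA-gated cation channel, had 31, 35 and 44 counts with 10 worms per plate and 35, 49 and 15 in solitary worms.

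In several lgc genes the value depended to a large part on a single library. lgc-21 had 31, 20 and 70 counts with 10 worms per plate and 22, 32 and 14 in solitary worms, and its log2 fold change of 0.79 was 0.10 without library 3 of 10 worms per plate. lgc-28 was chosen after its values were seen, with 15, 8 and 40 counts with 10 worms per plate and 10, 11 and 6 in solitary worms. Its log2 fold change was 1.17, and 0.27 without the same library. lgc-38 had 45, 28 and 55 counts with 10 worms per plate and 32, 24 and 32 in solitary worms, a log2 fold change of 0.48 that became 0.23 without it. Library 3 of 10 worms per plate was the highest of its condition in each of these genes, which are set together here for their dependence on it. That library also had the highest counts of the epidermis markers rol-6 and dpy-13, given below. Across the 52 tested members with a mean of at least 20 counts, the median log2 ratio to the mean of the 6 libraries was -0.091, 0.016 and 0.092 in the libraries of 10 worms per plate and -0.038, 0.089 and -0.14 in those of solitary worms, whereas the medians over all genes lay between -0.0075 and 0.0051.

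lgc-27 had 58, 38 and 67 counts with 10 worms per plate and 34, 48 and 24 in solitary worms (log2 fold change 0.57, SE 0.30). lgc-56 had 68, 52 and 58 counts with 10 worms per plate and 55, 85 and 72 in solitary worms, a log2 fold change of -0.30 (SE 0.21). lgc-57 had 13, 27 and 28 counts with 10 worms per plate and 17, 42 and 25 in solitary worms. The conditions overlapped in these 3 genes. The most abundant member, lgc-22, had 606, 595 and 692 counts with 10 worms per plate and 548, 683 and 447 in solitary worms, and its 95% interval of 0.881-fold to 1.35-fold was among the narrow ones.

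Glutamate receptor genes were fitted above 0 in 3 of 8 cases, and 0 had an unadjusted p under 0.05 in edgeR. glr-1, the AMPA-type subunit that command interneurons need for the response to nose touch, had 37, 38 and 38 counts with 10 worms per plate and 29, 41 and 25 in solitary worms, with an interval of 0.774-fold to 1.71-fold. glr-2, its partner subunit, had 83, 87 and 90 counts with 10 worms per plate and 83, 90 and 96 in solitary worms, an interval of 0.714-fold to 1.22-fold. The conditions overlapped in both genes, and glr-2 is the member that shares most exonic bases with another gene. glr-3, a kainate-type subunit that also acts in cold sensing, was rare, with 7, 5 and 12 counts with 10 worms per plate and 12, 13 and 4 in solitary worms.

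glr-4 had 114, 147 and 164 counts with 10 worms per plate and 135, 173 and 185 in solitary worms, with a log2 fold change of -0.26 (SE 0.18, adjusted p 0.636 in edgeR). glr-5 had 2.29, 2.30 and 2.54 CPM with 10 worms per plate and 2.35, 2.58 and 2.42 CPM in solitary worms, an interval of 0.778-fold to 1.21-fold. glr-6 had 289, 256 and 296 counts with 10 worms per plate and 319, 317 and 278 in solitary worms, with an interval of 0.730-fold to 1.07-fold. The conditions overlapped in all 3 genes.

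How large a difference could have been seen depended on the counts. Among the 52 members with a mean of at least 20 counts, the 95% interval lay within 2-fold in either direction for 43 and within 1.5-fold for 15. It lay within 2-fold for 0 of the 24 tested members with fewer counts. Over all genes the share within 2-fold was 68.7%. The 3 members with an absolute log2 fold change above 1, lgc-28, lgc-5 and lgc-19, all had fewer than 20 counts on average and were picked out after their values were seen.

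**Figure D5:**
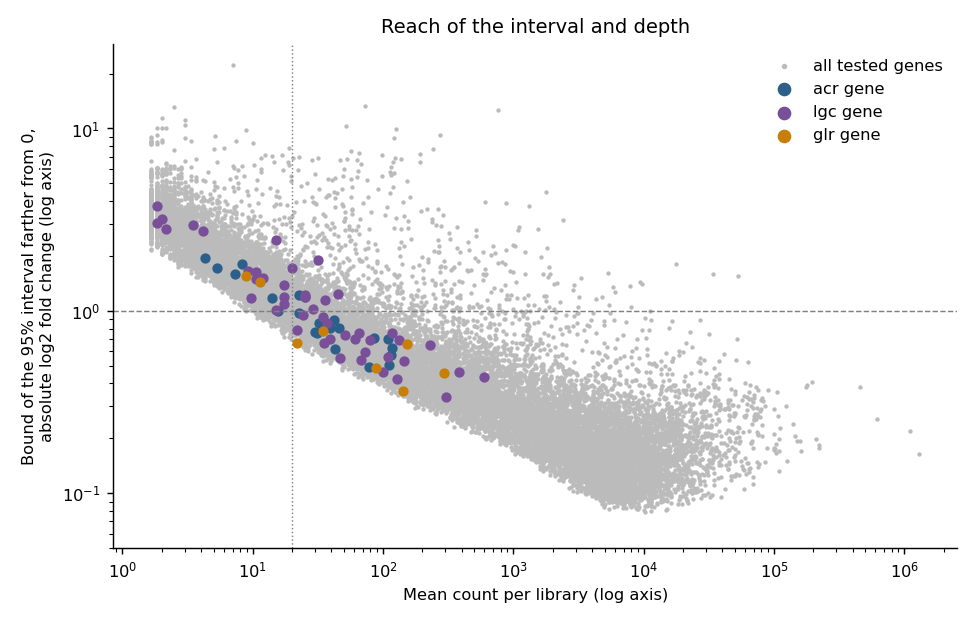
Bound of the 95% interval that lies farther from 0, as an absolute log2 fold change, against the mean count per library (both on log axes), for each tested member and, in grey, all tested genes. All 24 members left of the dotted line at 20 counts reach past the dashed line at 2-fold, and 43 of the 52 to its right stay below it.

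Further receptor subunits and the proteins that assemble or anchor receptors were listed for comparison. Of 30 other subunit genes 27 could be fitted (median log2 fold change 0.082), and 1 (3.70%) had an unadjusted p under 0.05. That gene was pbo-6, which encodes a subunit of the proton-gated channel of the defecation motor program, with 58, 63 and 65 counts with 10 worms per plate and 20, 20 and 48 in solitary worms. The conditions did not overlap, at a log2 fold change of 1.03 (SE 0.33, unadjusted p 0.00923, adjusted p 0.238 in edgeR). Its partner pbo-5 had 133, 160 and 147 counts with 10 worms per plate and 161, 172 and 160 in solitary worms. Over the alternative analyses in edgeR the adjusted p of pbo-6 ranged from 0.0168 (without solitary library 3, with a log2 fold change of 1.57) to 0.653 with the length trend removed, and it was under 0.05 also without a count minimum. Of 17 assembly and auxiliary genes 16 could be fitted, with a median of -0.031, and 1 had an unadjusted p under 0.05. That gene, molo-1, an auxiliary subunit of the levamisole receptor, had 81, 65 and 57 counts with 10 worms per plate and 39, 50 and 50 in solitary worms (log2 fold change 0.49, SE 0.21, adjusted p 0.395 in edgeR). In the main edgeR fit, with all libraries and the count minimum, no gene of either list had an adjusted p under 0.05.

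Markers of neurons, muscle and other tissues were read in the same libraries. The 18 pan-neuronal markers summed to 614 to 652 CPM with 10 worms per plate and 611 to 634 CPM in solitary worms, with 1 at an unadjusted p under 0.05 in edgeR. Of 13 body wall muscle markers 7 (53.8%) had an unadjusted p under 0.05 in edgeR, against 11.9% of all genes. Of these 7, 6 were lower and 1 higher with 10 worms per plate. In the main edgeR fit 0 of the 13 had an adjusted p under 0.05. Over the alternative analyses, in edgeR or DESeq2, the smallest adjusted p was 6.2e-08 for unc-27, 0.0073 for mup-2 and 0.0135 for tnt-2. The largest was 0.591, 0.591 and 0.684. The 13 markers summed to 3000 to 3129 CPM with 10 worms per plate and 3102 to 3345 CPM in solitary worms. Pharynx markers (7 genes) summed to 110 to 134 CPM with 10 worms per plate and 121 to 138 CPM in solitary worms, and 2 of the 7 had an unadjusted p under 0.05 in edgeR, pha-4 with a log2 fold change of 0.32 and tni-4 with -0.16. No marker of the germline and oocytes (10 genes), of the embryo (9 of 10 tested) or of sperm (3 of 8 tested) had an unadjusted p under 0.05 in edgeR, and 2 of 10 intestine markers and 1 of 8 epidermis markers did. Over the same alternatives, in edgeR or DESeq2, the smallest adjusted p of intestine markers was 1.7e-04 for mtl-2, 0.0300 for asp-1 and 0.0367 for act-5. It was 0.0220 for the epidermis marker col-19. The largest was 0.864, 0.793, 0.810 and 0.755 in that order. Of the epidermis markers, rol-6 had 1, 4 and 154 counts with 10 worms per plate and 3, 135 and 4 in solitary worms. For dpy-13 the counts were 4, 16 and 359 with 10 worms per plate and 13, 320 and 15 in solitary worms. dpy-7 and sqt-3 were lowest in solitary library 3, at 12 and 174 counts. The largest counts of col-19, bli-1, lin-26 and elt-3 were in other libraries. The part of cell type markers in the members' values was not tested.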

How the data were processed

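The authors trimmed the paired reads with Trimmomatic 0.36, aligned them with STAR 2.5.2b to WBcel235, counted unique reads on exons with featureCounts (Subread 1.5.2) and deposited counts per gene without normalization. The strand setting and annotation release are not given in the sources used here. Their normalized table was not used. Of 46756 identifiers, 43798 matched a symbol. Coordinates and exon lengths came from the Ensembl annotation of WBcel235.

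A sum of 10 or more counts across the 6 libraries was required of a gene before the test in edgeR 4.0.16 (R 4.3.3): TMM scaling, robust quasi-likelihood F test for growth condition, Benjamini-Hochberg adjustment (common biological coefficient of variation 0.116). The standard error was taken as the size of the fitted log2 fold change over the square root of F. The labels name biological repeats without saying how they were cultured, and p-values measure the spread between these libraries. Alternatives were DESeq2 1.42.0, its size factors, scaling by totals alone, filterByExpr or no filter in place of the count minimum, a replicate block, removal of a length trend (lowess span 0.3, fitted on genes with a mean of at least 100 counts) and each library left out. The scripts were tested on simulated data.

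Members and lists were chosen with earlier results of these data known. Named members (31) had an unadjusted p under 0.05, one of the 5 largest or 5 smallest log2 fold changes at a mean of at least 20 counts, one of the 3 highest levels of a family, a known role, or conditions that did not overlap at that count. Others are named with their lists or clusters, or were picked after their values were seen. Of 131 list symbols, 4 matched no gene. Protein sequences were not analysed here.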

Additional observations from a re-analysis of the deposited data

How the results depend on the processing

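No member had an adjusted p under 0.05 in any of the 13 alternatives to edgeR's quasi-likelihood test with all libraries, of which DESeq2 gave an adjusted p for only 5 members. The number of members at an unadjusted p under 0.05 (2) became 1 with DESeq2, 6 without a count minimum and 1 with the replicate block, and 1 to 6 with a library left out. Over all genes, the number with an adjusted p under 0.05 (44 in edgeR) became 435 with DESeq2, 7 without TMM, 745 without a count minimum, 17 with filterByExpr, 24 with the replicate block and 0 with the length trend removed, and 0 to 391 with a library left out (391 without solitary library 3). The labels do not say whether the numbers pair the libraries. Same-numbered deviations from the group means correlated at 0.205, -0.300 and -0.297 over 10491 genes, and of the 3 numbers only the first correlated best with its own. Deviations within a group of 3 libraries sum to 0, so these correlations depend on each other and cannot decide whether libraries were paired. The members' median log2 fold change stayed between 0.050 and 0.11 in the 7 alternatives with all libraries and between 6.7e-05 and 0.098 with a library left out.

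Of 402 alternative values over the 31 named members, 392 kept their sign and 10, in 7 members, changed sign, all with a library left out. An adjusted p was given for 375 of the values, 0 of them under 0.05, and the 27 without one were all from DESeq2. With a library left out, the log2 fold change ranged from -0.32 (without library 3 of 10 worms per plate) to 0.39 in acr-2, which was -0.012 without solitary library 2. It ranged from -0.062 (without solitary library 1) to 1.00 in acr-23, from -0.018 (without solitary library 3) to 0.24 in lgc-22 and from -0.069 (without solitary library 2) to 0.19 in lgc-40, which was -0.0044 without library 3 of 10 worms per plate. In lgc-35 it ranged from -0.24 (without solitary library 3) to 0.45, with -0.065 without library 3 of 10 worms per plate. In lgc-55 it ranged from -0.18 to 0.042 and in lgc-57 from -0.56 to 0.027, with both upper values found without solitary library 2. The cause was not tested. With its longest transcript as length, glr-6 was at 1.75 CPM per kilobase.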
